A study of Mus musculus with 2 samples.

Results

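The complement system was examined in mouse liver as a set of 32 genes that encode its components, regulators and receptors. The genes were chosen by name, as a fixed list of complement symbols, out of 31894 gene names on the array. All 32 had at least 1 probe, and 25 of them had exactly 1. Labelled RNA was hybridized to Agilent arrays of 1 colour (Cy3). One array held total RNA of C57BL/6 liver with the genotype Alb-Cre;CAG-floxed neo-Snail, and the other that of wild-type C57BL/6 liver. In the Snail genotype the albumin promoter drives Cre in hepatocytes, and the Snail transgene stands behind the CAG promoter and a floxed neo cassette. The wild-type control carries neither Cre nor the transgene by its label. The labels give no age or sex and do not say how many animals gave each RNA.

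Complement is a cascade of plasma proteins that marks targets for uptake and can perforate membranes. The classical, lectin and alternative pathways all lead to cleavage of C3, and then of C5, which starts assembly of the membrane attack complex. Hepatocytes make most of the circulating components, whereas C1q and properdin come mainly from macrophages and other myeloid cells. Soluble and membrane-bound regulators restrain the cascade on host cells.

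All values below are signals divided by the 75th percentile of their own array, called scaled signals, or log2 differences of scaled signals, the library labelled Snail minus wild-type. With 1 array per group there was no replicate check, no test and no p-value. An error written after ± is the scanner software's own error of the 2 signals, carried to the log2 difference. Where SD is written beside it, it is the spread between spots instead. A second measure of noise came from 239 probes with at least 5 usable spots. Their log2 difference varied between spots with a median SD of 0.08, and of 0.19 for signals under 100. Neither measure holds the spread between animals. Genes were called by size, at least 2-fold apart.

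On the array of the library labelled Snail 23230 spots (54.0% of the 43020 that are not controls) cleared background, against 21800 (50.7%) on the wild-type array. The probe of Snai1, which encodes Snail, had scaled signals of 0.0738 in the library labelled Snail and 0.0998 in wild-type liver, a log2 difference of -0.44 ± 0.32. Both signals were near the detection floor. Where this probe lies relative to the transgene is also not given in the sources used here, so it does not check the labels. Alb, the albumin gene and a defining transcript of liver, was bright on both arrays, at 631.5 against 974.7.

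Of the 32 complement genes 27 were well above background on both arrays. In the library labelled Snail 3 of these (11.1%), namely C8b, Cfi and Masp2, were lower by 2-fold or more, and 0 were higher by that much. The same cutoff was passed by 6.34% of all 15466 measured genes in the lower direction and by 3.96% in the higher. The median log2 difference was -0.35 for the 27 complement genes and -0.03 for all measured genes. Differences were below 0 for 18 complement genes (66.7%, against 52.6% of all measured genes) and above 0 for 9. Of the called genes only C8b stood clear of the 2-fold line. With normexp, quantile normalization, cyclic loess and the authors' value table, C8b was the 1 called complement gene (3.70%), against 3.70% to 6.30% of all genes called lower there. Cfi and Masp2 were still lower in these settings, by less than 2-fold.

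**Figure D1:**
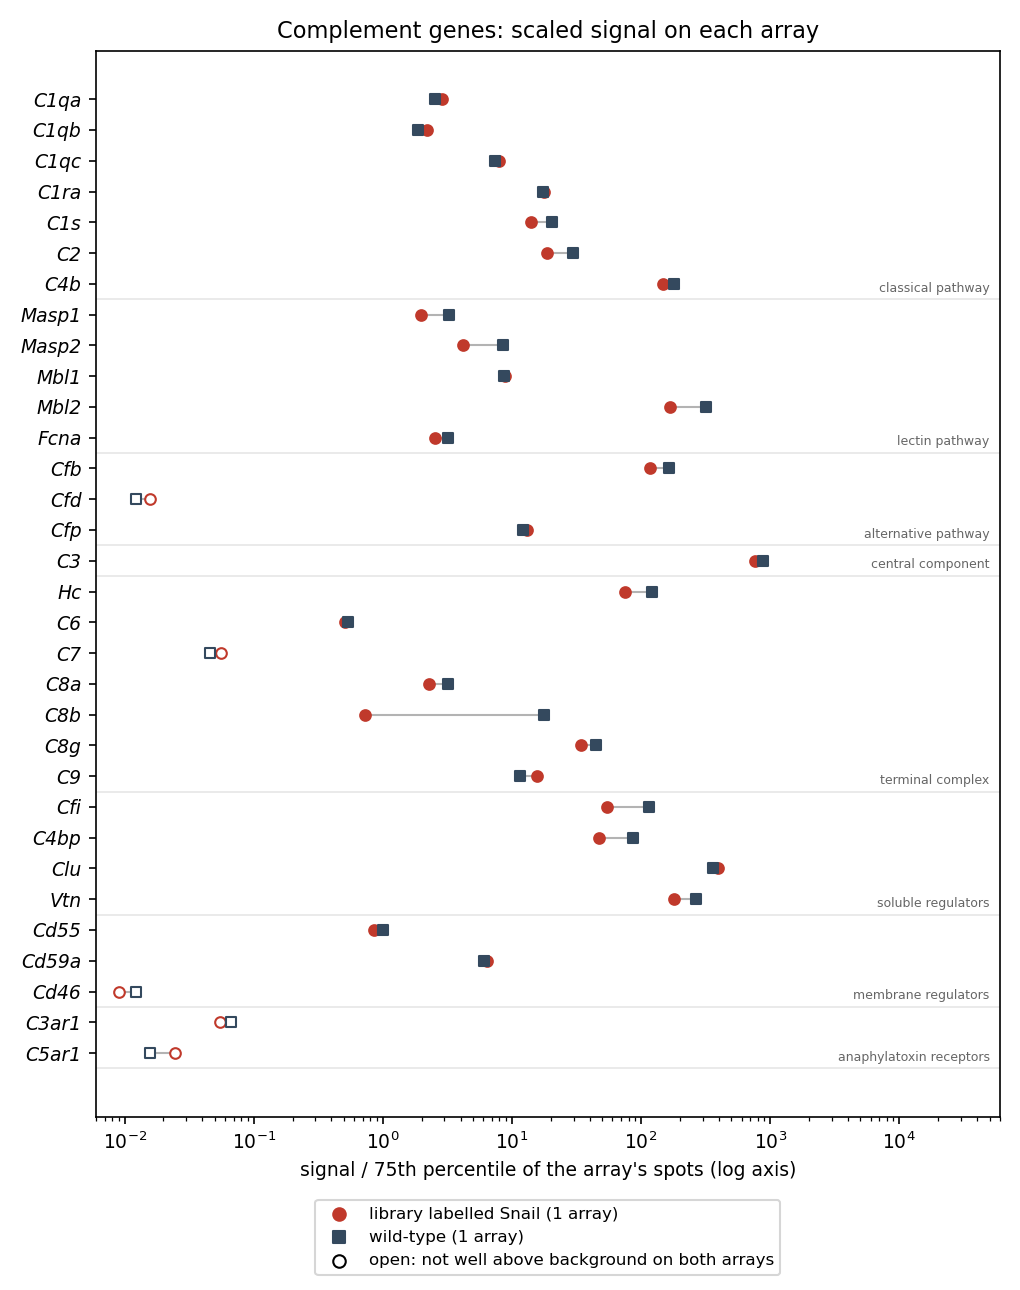
Scaled signal (log axis) of each complement gene in the library labelled Snail (circles) and in wild-type liver (squares), grouped by role. Open symbols mark the 5 genes that were not well above background on both arrays. The widest gap is that of C8b, with 0.731 in the library labelled Snail and 17.8 in wild-type liver.

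The 20 components that hepatocytes make were set against the 7 genes of macrophages and other myeloid cells. All 20 hepatocyte-made components were measured, with a median log2 difference of -0.52, and 16 of them were below 0. Of the 7 macrophage-made components and receptors 5 were measured, with a median of 0.13, and 4 of the 5 were above 0. The ranges overlapped, from -4.61 to 0.43 for the hepatocyte-made genes and from -0.35 to 0.23 for the others. Without C8b the hepatocyte-made median was -0.49. Over the 8 alternative settings the hepatocyte-made median stayed between -0.54 and -0.30 and the macrophage-made median between 0.10 and 0.25. The difference between the lists was not tested.

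Markers of both cell types had medians on the same side of 0 as these lists, by amounts that depended on the scaling. All 12 hepatocyte markers were below 0, although only 7 were in the authors' value table or with quantile normalization, with a median of -0.64 and a summed scaled signal of 2566 in the library labelled Snail against 4103 in wild-type liver. Over the settings their median lay between -0.64 and -0.15, and Alb reached 0.04. Of 13 Kupffer cell and macrophage markers 12 were measured and 9 of these were above 0, with a median of 0.12 and summed signals of 91.2 against 76.8. The scavenger receptor gene Marco was the 1 macrophage marker past 2-fold (8.33%, against 3.96% of all genes), at 12.8 against 4.51. The Kupffer cell lectin gene Clec4f was at 16.1 against 14.5. Mpeg1, also on the list, had the lowest log2 difference, -0.23, at 1.08 against 1.26. The gap between the summed signals was mostly that of Marco. The part of cell content in the complement differences was not tested. In whole liver, fewer cells of a type and less RNA per cell cannot be told apart.

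**Figure D2:**
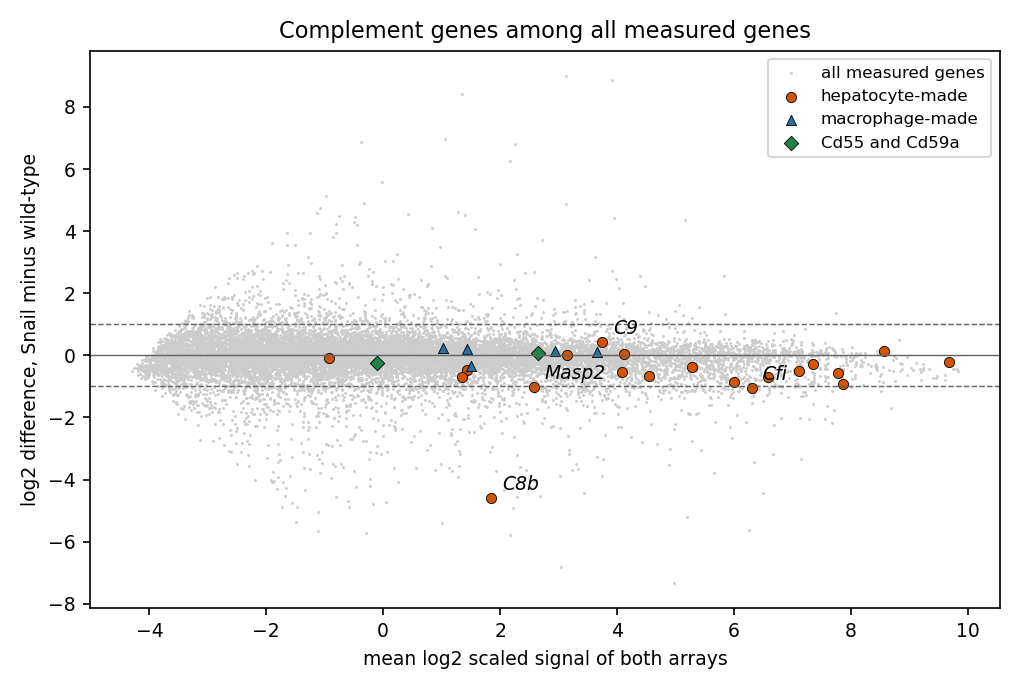
Log2 difference, the library labelled Snail minus wild-type, against mean log2 scaled signal for all 15466 measured genes (grey) and the 27 measured complement genes (coloured by source). Dashed lines mark 2-fold. C8b lies far below the other complement genes, and Cfi and Masp2 lie at the lower line.

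The terminal complex held the lowest value. C8b, which encodes the beta chain of C8, had a scaled signal of 0.731 in the library labelled Snail and 17.8 in wild-type liver, a log2 difference of -4.61 ± 0.20, or 24.3-fold lower. In unscaled intensity these were 220.9 ± 22.3 against 4140, both well above background. Only 18 of the 15466 measured genes had a lower log2 difference. The value was between -4.61 and -4.19 over the alternative settings, and the highest was that with normexp. It rests on 1 probe and 1 spot per array, on chromosome 4 from 104477094 to 104477153 of build mm9, plus strand. The first 30 of the 60 bases of that probe are shown because the C8b result depends on it alone.
C8b probe: catcccttggtaagcacagagtcttcttca

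The other chains of C8 did not share this difference. C8a, the alpha chain gene, had 2 probes, with scaled signals of 8.58 against 12.3 and of 0.614 against 0.826, and a mean log2 difference of -0.47 ± 0.15. C8g encodes the gamma chain, a lipocalin. Its probes gave 174.7 in the library labelled Snail against 239.3 in wild-type liver, and 6.76 against 8.26, with a mean of -0.37 ± 0.14. All 4 of these probes were lower in the library labelled Snail, and each by less than 2-fold. In the RefSeq annotation of GRCm38.p6 C8b and C8a are neighbours on chromosome 4 that run toward each other, C8b from 104766317 to 104804548 and C8a from 104815679 to 104876487.

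C9, which forms the ring of the membrane pore, was the highest of the 27 genes. Its scaled signal was 15.6 in the library labelled Snail and 11.6 in wild-type liver, a log2 difference of 0.43 ± 0.20. It was above 0 in all settings, up to 0.58 with quantile normalization. The settings that change the filter, the probe or the outlier spots could not move C9, which has 1 probe. Hc encodes C5, whose cleavage begins the terminal stage, and was at 75.4 against 121.0, a log2 difference of -0.68 ± 0.20. C6, the next protein to join, was at 0.510 against 0.540, a difference of -0.08 that is smaller than its error of 0.21. C7 cleared background on 1 array, that of the library labelled Snail, at 0.0556 against 0.0455, too near the detection floor of the wild-type array for a fold. Its second probe was below background on both arrays. Over the 6 measured terminal components the median log2 difference was -0.42, and -0.37 without C8b.

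Windows of 250 bases before to 50 after the transcript start were read from the RefSeq table of GRCm38.p6, which held 27 windows for 25 of the complement genes. No window was found for C1qa, C2, C4b, Cfb, Cfi, Masp1 or Clu, so these genes were not searched. The windows of C8b, C8a and C9 are shown, 5′ to 3′ on the gene's own strand, because C8b and C8a are neighbours that differed in size of change and C9 was the highest member. Capitals mark matches, on either strand, to the 3 motifs listed in the next paragraph, of which the C8b window held none. C8b lies at chr4:104766067-104766366 (plus strand), C8a at chr4:104876349-104876648 (minus strand) and C9 at chr15:6445096-6445395 (plus strand).
C8b promoter: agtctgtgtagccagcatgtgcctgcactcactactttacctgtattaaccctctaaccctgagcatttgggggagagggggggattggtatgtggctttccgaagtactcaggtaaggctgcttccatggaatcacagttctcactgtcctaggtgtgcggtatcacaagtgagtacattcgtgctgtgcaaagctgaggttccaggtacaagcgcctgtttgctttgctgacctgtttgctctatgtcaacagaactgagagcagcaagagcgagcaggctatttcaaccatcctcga
C8a promoter: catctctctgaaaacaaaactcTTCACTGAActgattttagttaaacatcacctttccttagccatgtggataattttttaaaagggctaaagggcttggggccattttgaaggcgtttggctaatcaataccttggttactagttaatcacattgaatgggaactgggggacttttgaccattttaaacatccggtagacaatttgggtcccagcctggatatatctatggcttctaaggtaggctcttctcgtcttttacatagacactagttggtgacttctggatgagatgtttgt
C9 promoter: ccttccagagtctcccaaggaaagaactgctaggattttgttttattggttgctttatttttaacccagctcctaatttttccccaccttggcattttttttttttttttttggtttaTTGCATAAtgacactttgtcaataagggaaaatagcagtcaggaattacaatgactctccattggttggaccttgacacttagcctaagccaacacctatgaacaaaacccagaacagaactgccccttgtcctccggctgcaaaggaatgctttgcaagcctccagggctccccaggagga

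The motifs searched were the E-box CAGGTG that Snail proteins bind, a C/EBP-like TTGCNNAA and a STAT-like TTCNNNGAA. No matches of different motifs overlapped in these windows. The C8a window held a STAT-like match at position -228 from the start, and that of C9 a C/EBP-like match at -132. CAGGTG was found in 4 of the 27 windows (14.8%), those of Cd46, C1qb, Cfd and Vtn, against 20.2% of all 32851 windows in the table. C/EBP-like matches were in 4 windows (14.8%) against 10.8%, and STAT-like matches in 5 (18.5%) against 8.30%. These are matches of letters in a short window and not binding.

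Genes of the lectin pathway, in which collectins and ficolins recognise sugars, were lower in 4 of 5 cases, with a median log2 difference of -0.71. Masp2 encodes the protease that cleaves C4 and C2 in this pathway, and a shorter product of the same gene lacks the protease domain. Its mean scaled signal was 4.21 in the library labelled Snail and 8.59 in wild-type liver, a log2 difference of -1.03 ± 0.12, or 2.04-fold lower. Its 3 probes span 0.75 on the log2 scale. The upstream probe, on chromosome 4 from 147977855 to 147977914 (mm9), gave 5.89 against 13.8, a difference of -1.23. The middle probe, from 147978456 to 147978515, gave 14.2 against 35.1, a difference of -1.30. Both were designed on 1 transcript record. The downstream probe, from 147989478 to 147989537, was designed on another transcript record and gave 0.890 against 1.31, a difference of -0.55. With the brightest probe alone Masp2 was at -1.30. Which product each probe reports is not given in the files. The first 30 bases of each probe are shown because the size of the Masp2 difference depends on which is read.
Masp2 upstream probe: aactacttgggcggctactattgctcctgc
Masp2 middle probe: aggctggaatgactgccagctacagcaccc
Masp2 downstream probe: gctatattgcatcttcccacataagtcacc

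Masp1 encodes a second lectin-pathway protease that activates MASP-2. Its probes gave 7.0 in the library labelled Snail against 12.7 in wild-type liver, and 0.563 against 0.835, with a mean log2 difference of -0.71 ± 0.15. Mbl2, the gene of the mannose-binding lectin MBL-C, was at 168.6 against 320.0, a log2 difference of -0.92 ± 0.20. Mbl1, which encodes the related lectin MBL-A, was at 8.91 against 8.75, a difference of 0.02 ± 0.20. The paired lectin genes thus had values on either side of the scanner error, Mbl2 lower and Mbl1 within it. Fcna, the ficolin of Kupffer cells, was at 2.52 against 3.20, and its log2 difference of -0.35 was the 1 value below 0 among the measured macrophage-made genes.

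**Figure D3:**
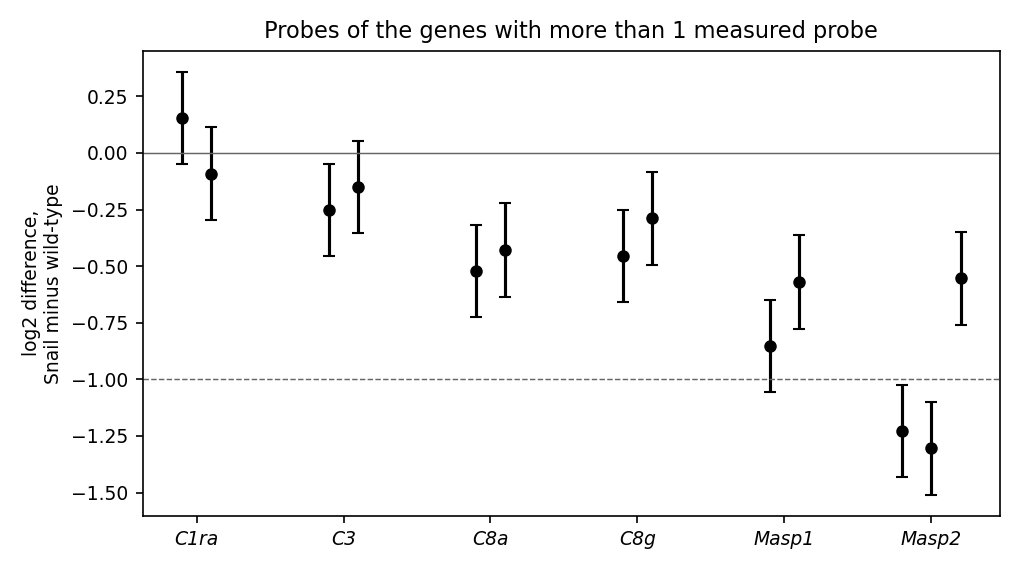
Log2 difference, the library labelled Snail minus wild-type, of each measured probe of the 6 complement genes with more than 1, in order of position. Bars are the scanner software's error of 1 spot pair, and the dashed line marks 2-fold lower. Of these probes only the upstream and middle probes of Masp2, at -1.23 and -1.30, lie below that line.

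In the classical pathway the 3 chains of C1q, which binds antibody, were slightly higher. C1qa was at 2.89 in the library labelled Snail and 2.54 in wild-type liver, a log2 difference of 0.19 ± 0.20. C1qb was at 2.21 against 1.89, a difference of 0.23 ± 0.20. C1qc was printed 10 times, and after 1 outlier its 9 spots ran from 7.73 to 8.50 in the library labelled Snail and from 7.09 to 7.60 in wild-type liver. These ranges did not overlap, and the C1qc log2 difference was 0.13 ± 0.04 (SD, n = 9 spots of 1 array pair). The scanner error of C1qc was 0.20, larger than this difference. The 3 genes kept their sign with normexp, quantile normalization, cyclic loess and the authors' value table. The other settings could not move C1qa or C1qb, which have 1 probe each.

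C1r and C1s are the proteases of the C1 complex, and C1s had the lower value. C1ra, one gene for C1r, had a mean log2 difference of 0.03 ± 0.14, with probes at 0.15 and -0.09. C1s, named C1s1 in the current annotation, was at 14.0 against 20.5, a log2 difference of -0.55 ± 0.20. C2, the protease of the C3 convertase, was at 18.5 in the library labelled Snail against 29.6 in wild-type liver, a difference of -0.68 ± 0.20. C4b, one gene for C4, was at 148.5 against 181.4, a difference of -0.29 ± 0.20, and was above 0 with quantile normalization (0.05) as well as in the authors' value table (0.02). C1ra, C1s and C4b have near-identical copies in the mouse genome, and the files do not say which copies a probe can bind.

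C3, the component on which all pathways converge, was close to level. On the probe printed 10 times its scaled signals ran from 815.1 to 1129 in the library labelled Snail and from 1030 to 1344 in wild-type liver. These ranges overlapped, although each of the 10 spots was lower than its counterpart at the same position, with a log2 difference of -0.25 ± 0.09 (SD, n = 10 spots). With the second C3 probe, at -0.15, the gene's value was -0.20 ± 0.14. Its sign depended on the scaling, with 0.26 under quantile normalization, 0.11 under cyclic loess and 0.31 in the authors' value table.

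In the alternative pathway, which amplifies C3 cleavage, Cfb and Cfp differed in sign. Cfb, factor B and the protease of that pathway, was at 116.7 in the library labelled Snail and 164.3 in wild-type liver, a log2 difference of -0.49 ± 0.20. Cfp, properdin, which stabilises the convertase, was at 13.0 against 12.1, a difference of 0.10 ± 0.20. Cfd encodes factor D, a protease made largely by fat cells. Neither array detected it above background, at 0.0156 against 0.0122, and the other 4 adipocyte markers, Adipoq and Lep among them, were also below that limit on both.

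Of the 4 soluble regulators 3 were lower. Cfi, factor I, which cleaves C3b and C4b with the help of cofactors, was at 55.0 in the library labelled Snail and 114.6 in wild-type liver, a log2 difference of -1.06 ± 0.20, or 2.08-fold lower. It lay between -1.06 and -0.75 over the alternative settings, and was called in those that kept the 75th percentile scaling of processed signals. C4bp, a cofactor for factor I, was at 47.5 against 86.8, a difference of -0.87 ± 0.20. Vtn, vitronectin, which binds the forming membrane attack complex, had 10 spots that ran from 168.5 to 197.4 in the library labelled Snail and from 249.2 to 299.9 in wild-type liver. These did not overlap, and the log2 difference was -0.58 ± 0.03 (SD, n = 10 spots of 1 array pair), with -0.21 under quantile normalization. The scanner error of Vtn was 0.20. Clu, clusterin, another soluble inhibitor of that complex, was at 394.7 against 361.1, a difference of 0.13 ± 0.20, and reached 0.55 under quantile normalization.

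**Figure D4:**
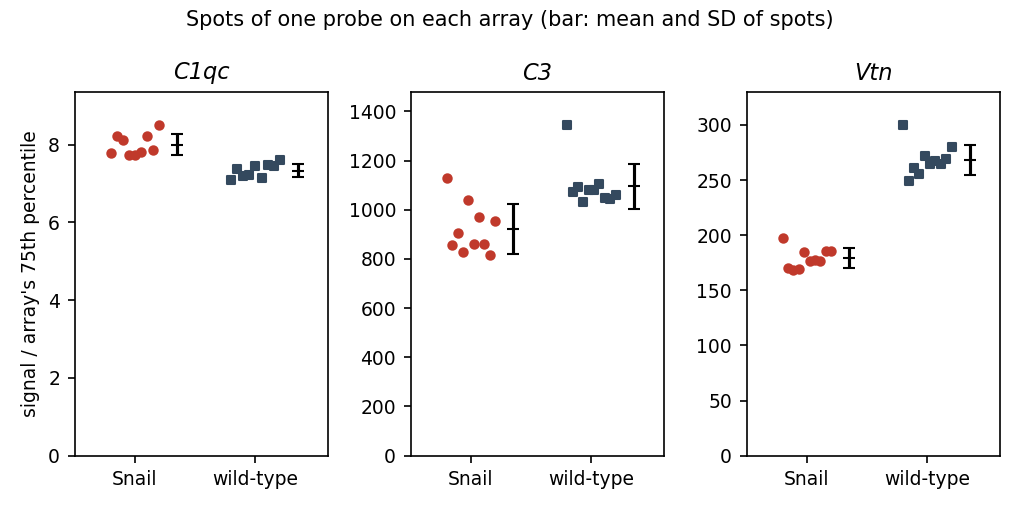
Scaled signals of single spots of 1 probe each for C1qc (9 spots), C3 (10) and Vtn (10), the library labelled Snail left of wild-type, with mean and SD over spots. Spots overlap between the arrays for C3 and not for C1qc or Vtn, and they show array noise within 1 array pair, not differences between animals.

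Among the membrane-bound regulators, Cd55, which speeds decay of the convertases, was at 0.861 in the library labelled Snail and 1.01 in wild-type liver, a log2 difference of -0.23 ± 0.21. Cd59a, which blocks C9 polymerisation, was at 6.40 against 6.08, a difference of 0.07 ± 0.20. Cd46, a cofactor for factor I that in mice is largely confined to the testis, was not well above background, at 0.00900 against 0.0122. The receptors for the anaphylatoxins C3a and C5a were not well above background on either array. C3ar1 was at 0.0547 against 0.0666, and C5ar1 at 0.0245 against 0.0156, and no fold is given for them.

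**Figure D5:**
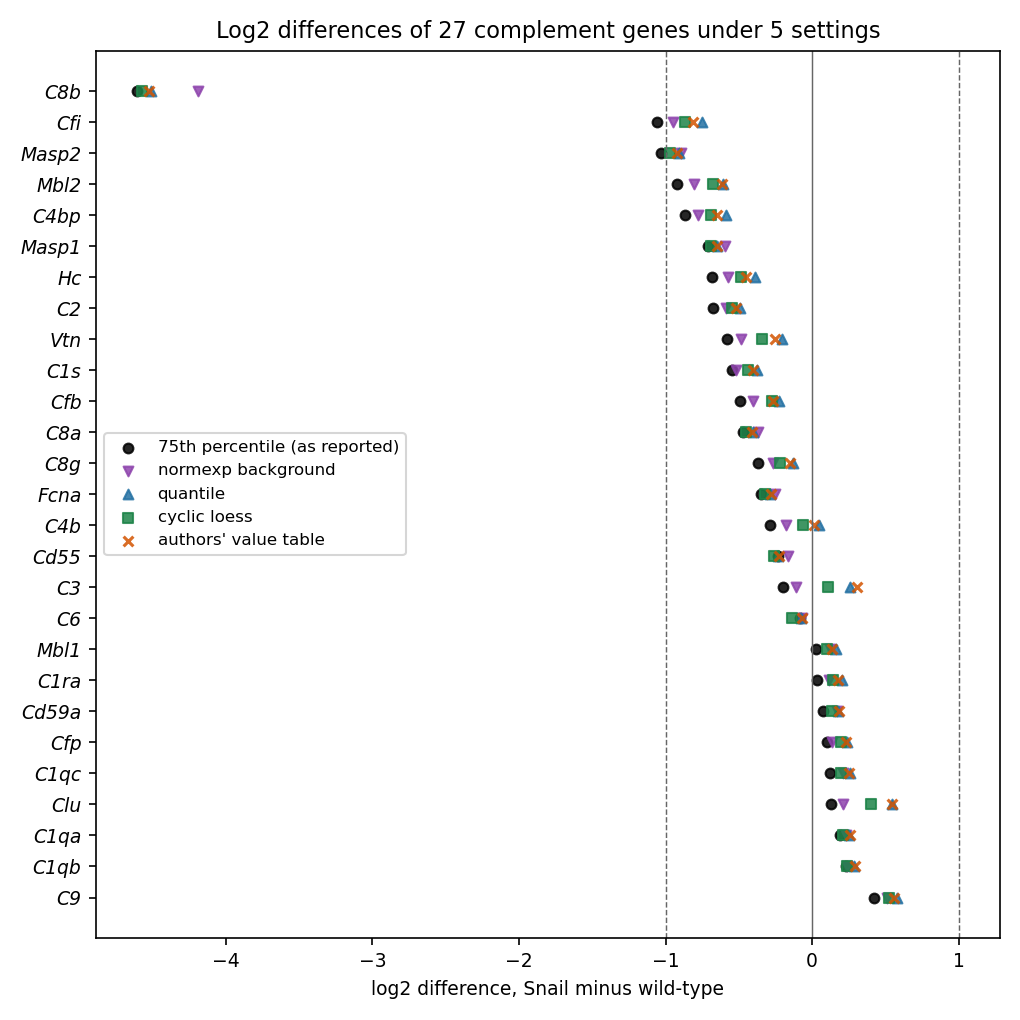
Log2 difference, the library labelled Snail minus wild-type, of the 27 measured complement genes under 5 settings, ordered by the reported value, with dashed lines at 2-fold. C8b stays between -4.61 and -4.19. C3 and C4b lie on both sides of 0.

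Other complement genes were looked up in a list of 30, of which 24 were measured. Past 2-fold were 5 lower genes (20.8%, against 6.34% of all genes) and 1 higher gene (4.17%, against 3.96%), and the median log2 difference was -0.15. With the signal minimum of 100, which left 19 of them, the median was -0.36, and with normexp 3 were lower and 0 higher. Susd4, a membrane protein that inhibits complement, was at 0.287 in the library labelled Snail against 1.74 in wild-type liver, a log2 difference of -2.59. Colec10, a collectin of the lectin pathway expressed by stellate cells, was at 1.41 against 5.34, a difference of -1.92. Of 8 stellate and fibroblast markers 7 were measured, 5 below 0 and 2 above, with a median of -0.94. Col1a1, a collagen gene, was the highest of them at 1.32, and Des was not well above background. Their summed signals of 28.9 in the library labelled Snail against 53.2 in wild-type liver were mostly those of Dcn, 25.8 against 49.6. Their part in the Colec10 value was not tested. Crp, which can activate the classical pathway, was at 6.24 against 13.7, a difference of -1.14. The carboxypeptidase N genes Cpn1 and Cpn2, whose product inactivates anaphylatoxins, had differences of -1.07 and -1.01. Cpn1 and Cpn2 came to -0.94 and -0.82 at the least over the settings.

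Itgax, a chain of complement receptor 4 on myeloid cells, was at 0.283 in the library labelled Snail against 0.0800 in wild-type liver, a log2 difference of 1.82, and 0.52 with normexp. Cr2, the receptor for C3 fragments on B cells, cleared background on the array labelled Snail alone, at 0.131 against 0.0807.

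Of 15 regulators of complement transcription in hepatocytes 12 were measured, and 2 lower genes (16.7%, against 6.34% of all genes) passed 2-fold, or 0 with normexp. Il6ra, a chain of the interleukin-6 receptor, was at 4.89 in the library labelled Snail against 10.5 in wild-type liver, a log2 difference of -1.11. Onecut1, a hepatocyte transcription factor, was at 0.481 against 1.03, a difference of -1.10. The hepatocyte factor gene Cebpa was at -0.78 and the cytokine gene Il1b at 0.84, with a range of 0.16 to 0.88 over the settings. Il6, Tnf and Ifng were not well above background on either array.

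The 14 acute-phase genes, which inflammation induces in hepatocytes together with several complement genes, split. Past 2-fold were 4 higher genes (28.6%, against 3.96% of all genes) and 5 lower genes (35.7%, against 6.34%), and the median log2 difference was -0.54. With quantile normalization the lower count was 3 and the median -0.15. Lcn2, a siderophore-binding lipocalin, was at 37.1 in the library labelled Snail against 4.15 in wild-type liver, a difference of 3.16. Saa3 and Saa2, serum amyloid genes, had differences of 2.23 and 1.63. Itih4, an inhibitor heavy chain secreted by hepatocytes, was at 8.74 against 101.7, a difference of -3.54. None of the hepatocyte-made complement genes reached the size of Lcn2 or Saa3 upward, and only C8b went further down than Itih4. Of 8 neutrophil markers 5 were measured and above 0, 2 of them past 2-fold (40%, against 3.96% of all genes). The median of the 5 was 0.92 (from 0.20 to 0.93 over the settings). Their summed signals of 80.7 in the library labelled Snail against 76.0 in wild-type liver were mostly those of Csf3r, 73.8 against 73.0. The neutrophil marker S100a8 was at 0.943 against 0.238, and Ngp was not well above background. The part of neutrophils in these values was not tested.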

How the data were processed

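Gene expression was measured on 2 arrays, 1 per group, grouped by the genotype in the labels. The submitters' processing notes name Agilent Feature Extraction 9.5.1.1. The processed intensity values that the authors deposited as scanner output, used here, had background removed by that software, per the file headers, with no scaling across arrays. Both arrays carry the barcode of 1 slide. Each log2 intensity was set relative to the 75th percentile of its array (control spots excluded), a signal of 302.1 on the array labelled Snail and 232.7 on the wild-type array. The 287 spots flagged as outliers on either array were left out. Spots were averaged per probe, then probes well above background on both arrays per gene. Of 39429 probes 26055 were named through RefSeq accessions of GRCm38.p6, and the rest kept the file's name. C1s was found as C1s1.

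A gene seen on 1 array only gets a bound against the lowest signal well above background (12.9 on the array labelled Snail, 13.8 on the wild-type array). The deposited value table of intensity values, of unstated scaling, had a median of 17.3 in both columns and followed its own array with a log2 correlation of 1.00. Its values lay near those of quantile normalization, with a hepatocyte-made median of -0.33 against -0.30, so these 2 settings are much alike. The value table served as an alternative, beside normexp (offset 50), quantile normalization and cyclic loess (limma 3.58.1 in R 4.3.3), a signal minimum of 100, no filter, the brightest probe, and outlier spots kept. Cyclic loess was added after seeing the data. The members, gene lists and settings were chosen with earlier results of these data known. Named genes are all members, a fixed number with the largest differences from the lists of other complement genes, regulators and acute-phase genes (1 of these is not reported here), those near or below background, and up to 3 markers of a cell type, picked with their values known and not by size. The steps were tested on simulated signals with a flat shift between arrays and a single spot per probe. Averaging over spots and probes, and the choice of scaling, were not tested that way. Only 1 array per group limits the precision.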

Additional observations from a re-analysis of the deposited data

How the results depend on the processing

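None of the 3 called complement genes changed sign, and C8b was called in every one of the 8 alternative settings. The signal minimum, no filter, brightest probe and kept outlier spots could not move C8b, which has 1 bright probe, and left it at -4.61. Only normexp, quantile normalization, cyclic loess and the authors' value table could change the C8b value. The count of complement genes at least 2-fold lower was 3, and 1 with normexp, quantile normalization, cyclic loess and the authors' value table. The count at least 2-fold higher was 0 in every setting run. The median of the 27 measured complement genes, -0.35, became -0.26 with normexp, -0.21 with quantile normalization, -0.26 with cyclic loess and -0.23 in the authors' value table. The hepatocyte-made median, -0.52, became -0.30 with quantile normalization, -0.39 with cyclic loess and -0.33 in the value table. The macrophage-made median, 0.13, became 0.21 with normexp, 0.25 with quantile normalization and 0.25 in the value table. The terminal complex median, -0.42, became -0.32 with normexp, -0.26 with quantile normalization, -0.33 with cyclic loess and -0.28 in the value table. The causes were not tested. Single complement genes shifted by a median of 0.16 with quantile normalization and 0.13 in the value table, and in both C3 and C4b turned positive. C3 also did with cyclic loess, and C1ra turned to -0.09 with the brightest probe. Without a filter the median of all genes was -0.47, since the floors of the arrays differ, and that of the complement genes -0.36. Of all measured genes 613 passed 2-fold upward and 980 downward, against 297 and 572 with normexp. The signal minimum of 100 left 262 and 605 such genes of 10354. No paired analysis was possible because each group has 1 array. For the same reason no replicate could be left out. Genes near background, such as C7 and the anaphylatoxin receptors, have no usable fold.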
